A study of Mus musculus with 9 samples.

Results

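The genes of platelet-derived growth factor (PDGF) signalling were examined in mouse neural stem cells that received a short hairpin RNA against Phf2, a gene for a histone demethylase. The set holds 6 of the 54232 genes in the count table: the 2 receptor genes Pdgfra and Pdgfrb and the 4 ligand genes Pdgfa, Pdgfb, Pdgfc and Pdgfd, taken by symbol from the Ensembl identifiers. The set was picked with results in view, because Pdgfra differed between the date labels of the libraries and Pdgfb was higher with the hairpin sh900. Those patterns are described below without a test, and the hairpin sh902 was tested.

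The cells were primary embryonic neural stem cells, with the tissue given as the brain subventricular zone, plated on laminin in medium with FGF and EGF. The 3 groups were cells with sh900, cells with sh902 and cells with the non-targeting hairpin shNT, with 3 RNA-seq libraries each, and RNA was taken 3 days after treatment. No strain, sex or embryonic age is stated, and no label ties a library to its own culture or animal. The p-values here therefore reflect library-to-library spread, some of which may be technical. Each group has 1 library without a date in its title, 1 dated 30 August and 1 dated 3 September. What the date marks is not stated. The undated libraries are treated below as 1 label, although nothing states that they belong together. Values below are listed in the order undated, 30 August, 3 September.

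The libraries held 23212472 to 32392496 estimated counts, and the expression filter kept 17602 genes for testing. Phf2 stood at 19.0, 13.5 and 26.8 CPM (the count scaled to the library total) with sh900, at 25.7, 17.0 and 29.2 CPM with sh902 and at 57.4, 51.6 and 49.5 CPM with shNT, so all 6 hairpin libraries were below all 3 control libraries. The libraries differed by label as well as by hairpin. Mki67, a gene of cycling cells, stood at 397, 176 and 343 CPM with sh900, at 537, 299 and 472 CPM with sh902 and at 297, 849 and 61.2 CPM with shNT. The neural stem genes Vim and Fabp7 averaged 4043 and 1366 CPM over the 9 libraries. Of 9 endothelial markers 7 averaged under 1 CPM.

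PDGF ligands are secreted dimers that bring together receptor tyrosine kinases on the cell surface. The receptors then phosphorylate each other and recruit adaptor proteins and enzymes that carry the signal to the nucleus. In the brain Pdgfra marks oligodendrocyte precursors, which divide in response to the Pdgfa product, whereas Pdgfrb marks pericytes and other mural cells, which are drawn to vessels by the Pdgfb product of endothelial cells. The products of Pdgfc and Pdgfd are made as latent proteins that proteases activate.

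Per kilobase of merged exon, Pdgfa had the highest median of the members, at 11.2 CPM per kilobase over the 9 libraries. Pdgfc followed with a median of 1.998, Pdgfra with 1.49, Pdgfb with 0.0823, Pdgfd with 0.0694 and Pdgfrb with 0.0131 CPM per kilobase. Pdgfa exceeded Pdgfc in 9 of 9 libraries and Pdgfra exceeded Pdgfb in 9 of 9. Pdgfa exceeded Pdgfra in 6 of 9 libraries. Pdgfra was higher in the undated shNT library (7.59 against 4.02 CPM per kilobase) and in that of 3 September (27.0 against 2.81). It was also higher in the sh900 library of 3 September (13.0 against 7.31). The order of Pdgfc and Pdgfra was not fixed, since Pdgfc was higher in 5 of 9 libraries. Pdgfb was above Pdgfd and Pdgfd above Pdgfrb in 6 of 9 libraries each, at counts too low to rank them further.

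**Figure D1:**
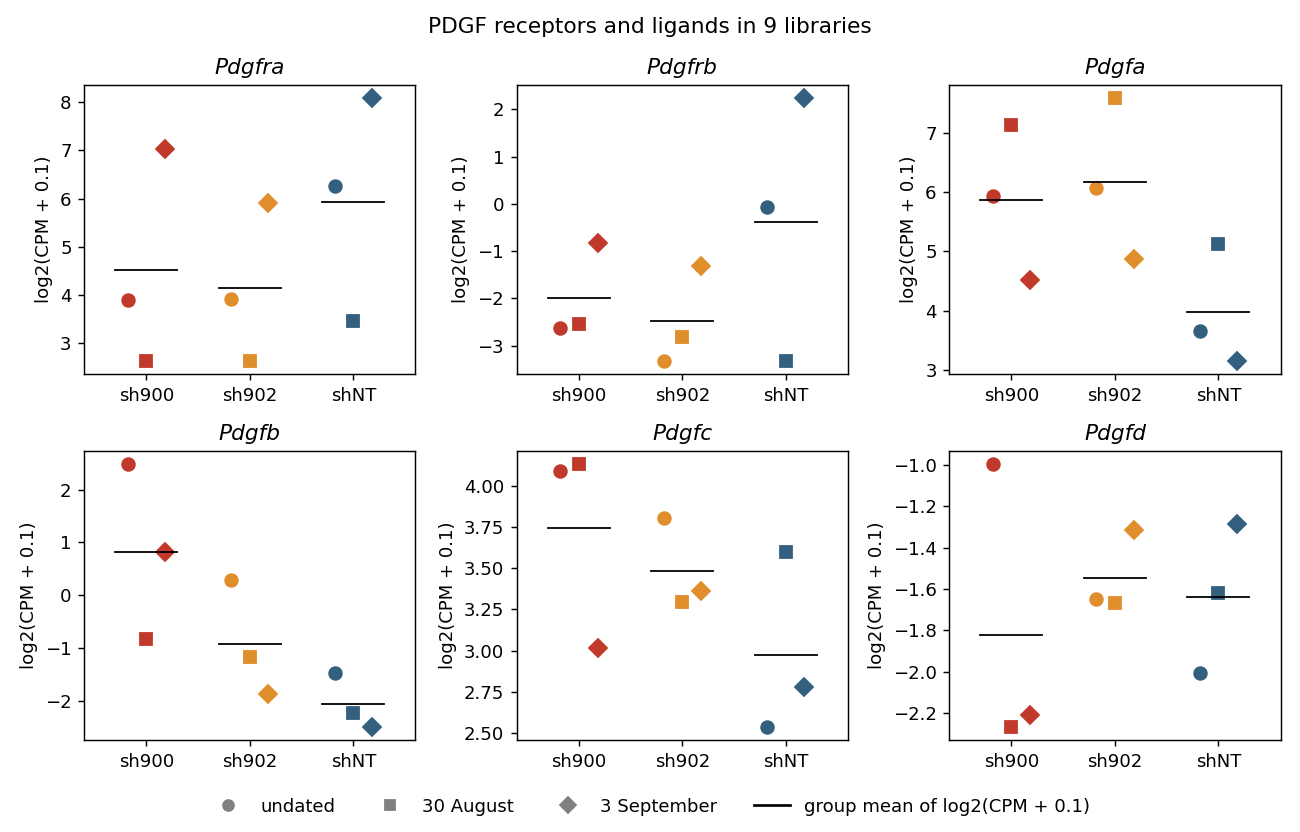
Level of each PDGF gene in the 9 libraries, as log2(CPM + 0.1), with the groups sh900, sh902 and shNT from left to right. Each point is 1 library, its shape gives the date label, and the line is the group mean of the log2 values; Pdgfa and Pdgfra order the labels in opposite ways within each group, and Pdgfb is highest with sh900.

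The sequence before the start of Pdgfra and of Pdgfa is shown because these genes differed in opposite directions from the control of the same label. Both are on chromosome 5, on opposite strands and far apart. The 250 bases upstream of each start are from RefSeq on GRCm38.p6, read 5′ to 3′ on the gene's strand; capitals mark matches, on either strand, to GGGCGG (a GC box) or CAGNTG (an E-box). These motifs occur in 32.7% and 44.8% of the 32851 RefSeq windows of the same length. The Pdgfra window lies at chr5:75152001-75152250 on the plus strand and the Pdgfa window at chr5:138994945-138995194 on the minus strand. The Pdgfa window lies inside the annotated span of the gene, which reaches 138997370, so it precedes an internal start. The sequence after the RefSeq start of Pdgfra was not found in an annotated transcript of that gene.
Pdgfra: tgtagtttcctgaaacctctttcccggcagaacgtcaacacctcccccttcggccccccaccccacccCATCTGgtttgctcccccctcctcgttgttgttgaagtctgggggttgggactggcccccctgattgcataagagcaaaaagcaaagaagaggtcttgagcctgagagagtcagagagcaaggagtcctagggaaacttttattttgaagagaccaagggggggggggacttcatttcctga
Pdgfa: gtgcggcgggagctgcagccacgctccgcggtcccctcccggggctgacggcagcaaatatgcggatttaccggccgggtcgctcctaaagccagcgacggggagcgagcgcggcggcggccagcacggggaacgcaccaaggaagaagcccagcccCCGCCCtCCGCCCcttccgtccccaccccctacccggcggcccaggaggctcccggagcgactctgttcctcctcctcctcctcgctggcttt
The Pdgfa window held 28 CpG dinucleotides at 72.4% GC, more CpG than 92.4% of the windows, and had 2 GC boxes. The Pdgfra window held 4 CpG at 54.4% GC, had 1 E-box and had no match to the GC box. A second RefSeq start of Pdgfa has 19 CpG and 1 GC box before it, and the windows of Pdgfc and Pdgfd held 3 CpG each. TGACTCA (AP-1) was searched too and was in none of these windows; TATAAA was found once, in the Pdgfd window. These letters describe the windows and do not show that a factor binds there.

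Pdgfra, the receptor gene of oligodendrocyte precursors, was below the same-label control in all 6 hairpin libraries. It lies on the plus strand of chromosome 5 (GRCm38, 75152292 to 75198215). It stood at 14.8, 6.10 and 130 CPM with sh900, at 15.0, 6.12 and 59.8 CPM with sh902 and at 76.1, 10.9 and 271 CPM with shNT. Within each label the hairpin libraries were lower, but the groups overlap because the labels differ by more than the hairpins do. In the undated libraries the level with sh900 was 19.4% of that with shNT, and with sh902 it was 19.7%. In the libraries of 30 August these shares were 56.2% and 56.4%, and in those of 3 September 48.1% and 22.1%. The undated shares rest on an uncertain pairing. The undated control, at 76.1 CPM, lay below the sh900 library of 3 September, at 130 CPM. The group means were 50.4 ± 69.4 CPM with sh900, 27.0 ± 28.8 CPM with sh902 and 119 ± 135 CPM with shNT (SD, n = 3 each).

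With sh902 the log2 fold change of Pdgfra in edgeR's quasi-likelihood fit without a block was -2.17 ± 1.39 (SE; adjusted p = 0.460). With a replicate block for the date label it was -1.86 ± 0.35 (edgeR, adjusted p = 0.0227). The blocked call was lost without the undated shNT library (edgeR, adjusted p = 0.0745) or without 1 of 2 sh902 libraries, the undated one (0.145) or that of 3 September (0.0961), and it was kept in the other 6 fits that left out 1 library. On the 6 dated libraries alone the blocked value was -1.55 ± 0.34 (edgeR, adjusted p = 0.163). With sh900 the blocked log2 fold change was -1.40 ± 0.34, given without a test. In bulk RNA, fewer cells that express Pdgfra and less Pdgfra RNA per cell cannot be told apart.

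Pdgfra differed more between the dated labels than between hairpin and control. The level in the library of 30 August was 4.68% of that of 3 September with sh900, 10.2% with sh902 and 4.01% with shNT. In each group the order was the same, with 3 September highest and 30 August lowest. The label was part of the reason for choosing Pdgfra, so this is a description. The antisense models Gm42802 and Gm42803 share 456 and 166 exon bases with Pdgfra and reached at most 0.154 CPM in any library.

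Pdgfrb, the receptor gene of mural cells, was close to absent outside 2 of the control libraries. It is on chromosome 18. Its counts were 2, 2 and 12 with sh900, 0, 1 and 7 with sh902 and 23, 0 and 119 with shNT. Only the undated and 3 September control libraries held more than 12 counts, so these libraries carry the whole difference between the groups. In the undated libraries Pdgfrb was at 7.21% of the control with sh900 (95% counting interval, as a ratio, 0.00824 to 0.292) and at least 9.13-fold lower with sh902, taking 3 counts as the floor of a library at 0. In those of 3 September it was at 10.0% with sh900 and 6.53% with sh902, and on 30 August all 3 counts were at or under the floor. With sh902 the log2 fold change was -4.04 ± 1.71 without the block (edgeR, adjusted p = 0.304) and -3.88 ± 1.02 with it (adjusted p = 0.0503). It did not pass, and among the 9 blocked fits that left out 1 library it passed only without the shNT library of 30 August (edgeR, adjusted p = 0.00429).

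The summed level of the mural cell list overlapped between the groups. By label it was 409, 270 and 325 CPM with sh900, 207, 254 and 219 CPM with sh902 and 225, 293 and 161 CPM with shNT. Most of it was Notch3, a gene not limited to mural cells, at an average of 187 CPM. In the fit with the block Mcam was called lower with sh902, beside 5.39% of all genes lower. That call was kept in 1 of 9 fits that left out 1 library. Mcam was also called higher with sh900 than with sh902, beside 2.48% of all genes higher, and this was kept in 2 of 9 such fits. Of the 11 markers, 5 passed the expression filter, and Kcnj8, Abcc9, Anpep, Des, Vtn and Higd1b averaged under 1 CPM.

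Pdgfa, the ligand gene whose product binds the Pdgfra receptor, was above the same-label control in all 6 hairpin libraries. It lies on the minus strand of chromosome 5 (GRCm38, 138976014 to 138997370). It stood at 61.2, 140 and 22.8 CPM with sh900, at 67.3, 192 and 29.0 CPM with sh902 and at 12.5, 34.9 and 8.77 CPM with shNT. The groups overlap only through the labels, since the control of 30 August exceeded the hairpin libraries of 3 September. The level was 4.88, 4.01 and 2.60 times that of the same-label control with sh900, and 5.36, 5.50 and 3.31 times with sh902. The group means were 74.6 ± 59.6 CPM with sh900, 96.0 ± 85.1 CPM with sh902 and 18.7 ± 14.1 CPM with shNT (SD, n = 3 each).

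With sh902 the log2 fold change of Pdgfa was 2.33 ± 0.92 without the block (edgeR, adjusted p = 0.286). With the block it was 2.17 ± 0.21 (edgeR, adjusted p = 0.00547), and Pdgfa was called in 9 of 9 blocked fits that left out 1 library, with adjusted p from 0.00173 to 0.0466. On the 6 dated libraries the blocked value was 2.04 ± 0.26 (edgeR, adjusted p = 0.0786), and the call was lost. With sh900 the blocked log2 fold change was 1.94 ± 0.21, given without a test. Pdgfa also differed by label, at 6.13 times the 3 September level on 30 August with sh900, 6.61 times with sh902 and 3.98 times with shNT.

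The antisense gene 6330403L08Rik shares 813 exon bases with Pdgfa. It stood at 20.9, 46.4 and 10.7 CPM with sh900, at 12.04, 43.5 and 9.35 CPM with sh902 and at 7.07, 12.1 and 6.17 CPM with shNT, in the same order of labels as Pdgfa. Nothing states that the library preparation kept strand, so reads of the shared bases cannot be told apart between the genes.

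Library by library, ligand and receptor thus differed in opposite directions, by hairpin within each label and by label within each group. This is a description, since without the block edgeR called neither gene with sh902 and the label was not tested. Per kilobase, the ratio of Pdgfa to Pdgfra was 13.3, 73.6 and 0.562 with sh900, 14.4, 100.6 and 1.56 with sh902 and 0.530, 10.3 and 0.104 with shNT. Every hairpin library had a higher ratio than the control of its label. The mean log2 ratio was 3.03 ± 3.57 with sh900, 3.71 ± 3.01 with sh902 and -0.27 ± 3.36 with shNT (SD, n = 3 each). The difference of 3.99 between sh902 and shNT had an exact two-sided permutation p of 0.2 over 20 splits, where the smallest possible p is 0.1. The splits ignored the date label, so this p and the SDs include the spread between labels. The ratio joins genes whose opposite directions are already described, so it is not separate evidence.

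**Figure D2:**
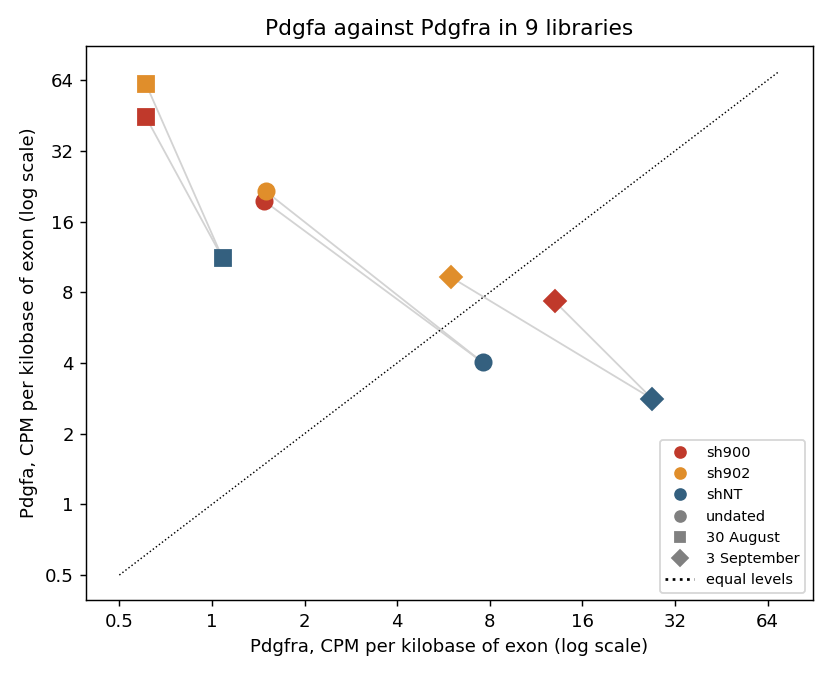
Pdgfa against Pdgfra in the 9 libraries, both in CPM per kilobase of exon on log axes, with colour for the group and shape for the date label. Grey lines join each hairpin library to the control of its label; they all run up and to the left, to more Pdgfa and less Pdgfra, and the ratio spans 0.104 to 100.6.

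Pdgfb, whose product binds either receptor and is made by endothelial cells and by platelets, was low in all libraries and highest with sh900. It lies on the minus strand of chromosome 15 (GRCm38, 79995874 to 80014977). Its counts were 178, 13 and 43 with sh900, 36, 8 and 4 with sh902 and 7, 3 and 2 with shNT. The sh900 libraries were all above the control libraries, while sh902 overlapped with both. Groups that do not overlap were found for 17.7% of all tested genes between sh900 and shNT, and Pdgfb was chosen on this contrast, so nothing is read from it. The ratio to the same-label control was 21.1 with sh900 in the undated libraries (95% counting interval 10.0 to 53.2), 4.14 on 30 August (1.14 to 22.6) and 21.4 on 3 September (5.57 to 182). With sh902 it was 4.32 (1.90 to 11.5), 3.04 (0.730 to 17.8) and 2.22 (0.318 to 24.5).

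The group means of Pdgfb were 2.54 ± 2.63 CPM with sh900, 0.547 ± 0.508 CPM with sh902 and 0.150 ± 0.0971 CPM with shNT (SD, n = 3 each). With sh902 the log2 fold change was 1.83 ± 1.06 without the block (edgeR, adjusted p = 0.421) and 1.74 ± 0.64 with it (adjusted p = 0.120), so it did not pass. The blocked value with sh900 was 3.87 ± 0.60 against shNT and 2.13 ± 0.51 against sh902, both given without a test. Between the hairpins the undated and 3 September libraries differed most, at 4.88 and 9.63 times more with sh900 than with sh902, against 1.36 times (0.523 to 3.79) on 30 August. The endothelial list summed to 4.09 to 13.1 CPM with sh900, 3.71 to 8.99 CPM with sh902 and 6.25 to 10.9 CPM with shNT, and 4 of its 9 genes passed the expression filter. These ranges overlapped, and the part of endothelial cells in the level of Pdgfb was not tested.

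**Figure D3:**
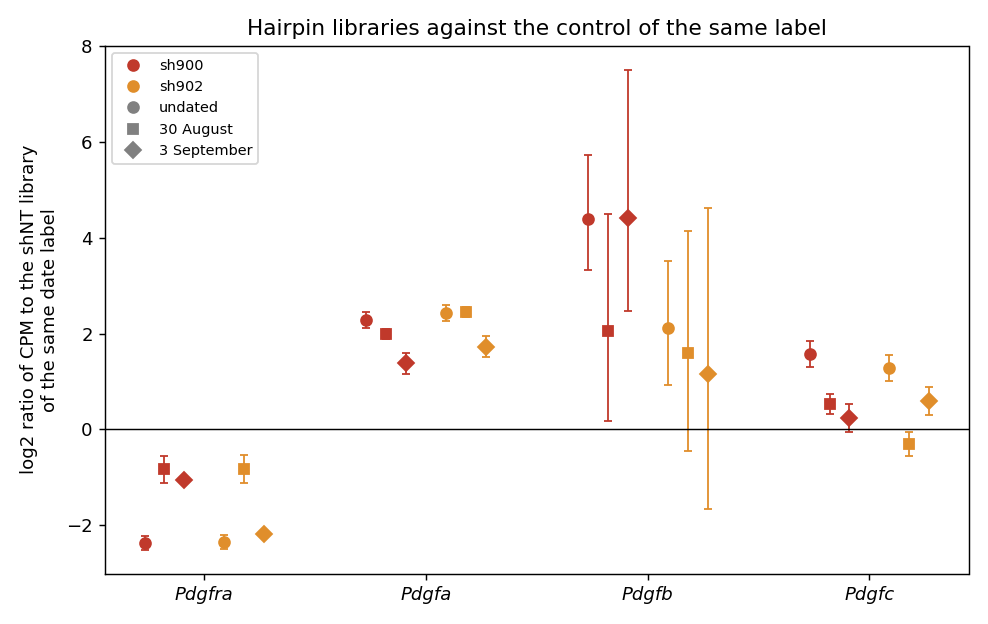
Log2 ratio of CPM in each sh900 and sh902 library to the shNT library of the same date label, for Pdgfra, Pdgfa, Pdgfb and Pdgfc; bars are 95% counting intervals. The 6 points of Pdgfra lie below 0, the 6 of Pdgfa and the 6 of Pdgfb above it, and Pdgfc has 1 point below, sh902 on 30 August.

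Pdgfc, a latent ligand for the Pdgfra receptor, differed less than Pdgfa. It lies on the plus strand of chromosome 3 (GRCm38, 81036416 to 81214040). It stood at 17.0, 17.5 and 7.99 CPM with sh900, at 13.9, 9.72 and 10.2 CPM with sh902 and at 5.69, 12.02 and 6.75 CPM with shNT. The ratio to the same-label control was 2.98, 1.45 and 1.18 with sh900 and 2.44, 0.809 and 1.51 with sh902, so 5 of 6 hairpin libraries were higher. The log2 fold change with sh902 was 0.43 ± 0.41 without the block (edgeR, adjusted p = 0.628) and 0.49 ± 0.34 with it (adjusted p = 0.389), within the spread between libraries. With sh900 the blocked value was 0.82 ± 0.34, given without a test. Pdgfd, the other latent ligand, on chromosome 9, had 13, 3 and 3 counts with sh900, 7, 5 and 7 with sh902 and 4, 6 and 8 with shNT. It did not pass the expression filter, and no difference was detectable at this depth.

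Counted over the set, 5 of the 6 genes were tested. Between sh902 and shNT, 0 of 5 were called without the block, where edgeR called 0% of all genes (2776 of them, 15.8%, had an unadjusted p under 0.05, and DESeq2 called 848, or 4.82%, without a block, 0 of the 5 among them). With the block 1 was higher and 1 lower, Pdgfa and Pdgfra, beside 10.5% of all genes called, 5.12% higher and 5.39% lower. The median log2 fold change of the 5 was 0.49, against -0.0051 over all genes. That median is the value of Pdgfc, which was not called. The tested ligand genes had positive values and the receptor genes negative ones, so the median does not describe a shared shift. No count of the set is given between sh900 and shNT, since Pdgfb was chosen on that contrast. The comparisons with sh900 and sh902 use the same control libraries. The permutation tests given next ignored the date label, so their p-values include the spread between labels. Exact two-sided permutation tests of log2 CPM between sh902 and shNT gave p = 0.4 for Pdgfra and Pdgfrb, 0.2 for Pdgfa and Pdgfb, 0.3 for Pdgfc and 1 for Pdgfd, with 0.1 the smallest possible.

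Between the hairpins edgeR called none of Pdgfra, Pdgfrb, Pdgfa and Pdgfc, with or without the block, and neither did DESeq2. Pdgfb was not tested there. The blocked log2 fold changes of sh900 against sh902 were 0.46 ± 0.34 for Pdgfra (edgeR, adjusted p = 0.480), 1.02 ± 1.19 for Pdgfrb (0.668), -0.23 ± 0.20 for Pdgfa (0.544) and 0.33 ± 0.34 for Pdgfc (0.613), beside 4.22% of all genes called, 2.48% higher and 1.74% lower. Without the block edgeR called 0% in this contrast (2532 genes, 14.4%, had an unadjusted p under 0.05, and DESeq2 called 1018, or 5.78%). Pdgfra with sh900 was at 98.7% and 99.6% of its level with sh902 in the undated and 30 August libraries, and at 2.18 times that level on 3 September.

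On the chromosomes, the nearest protein-coding neighbours gave 1 gene that moved with a member. Kit, the stem cell factor receptor gene and a relative of Pdgfra, lies 376701 bases beyond it on chromosome 5. Kit stood at 10.8, 4.24 and 16.02 CPM with sh900, at 8.75, 4.33 and 9.52 CPM with sh902 and at 24.3, 11.5 and 49.5 CPM with shNT, lowest on 30 August and highest on 3 September in each group, as Pdgfra was. It fell in the blocked fit with sh900, by 1.38 ± 0.22 on the log2 scale (edgeR, adjusted p = 0.0135), and with sh902, by 1.79 ± 0.23 (adjusted p = 0.00768). Without the block its adjusted p was 0.316 with sh900 and 0.221 with sh902 (edgeR). The call with sh902 was lost without the undated sh902 library (adjusted p = 0.0583), and that with sh900 without the undated or the 30 August sh900 library (up to 0.0895). Gsx2, on the other side of Pdgfra, was under 1 CPM in every library. Cdx1 and Csf1r beside Pdgfrb reached at most 0.688 CPM, and Cbx7 beside Pdgfb was not called with sh900 or sh902 (edgeR with the block, adjusted p = 0.422 and 0.336). The other neighbours, Gm5294, Prkar1b, Rpl3, Glrb, Ctso, Casp12 and Dync2h1, were not called in any contrast either, or were too low to test.

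The other genes of the pathway are counted next in the fit with the block, in which edgeR called 10.5% of all genes with sh902 and 8.85% with sh900, 5.39% higher and 3.45% lower. Without the block edgeR called 0% of all genes with sh900, where 14.7% had an unadjusted p under 0.05 and DESeq2 called 4.49%, and it called none of the pathway genes with either hairpin. On the 6 dated libraries with the block none of the calls was kept. The lists were chosen with earlier results of these data known. Of the 10 genes for processing or binding the ligands, 1 rose and 2 fell with sh902, and 2 rose and 1 fell with sh900. Furin, for a protease that trims the Pdgfa and Pdgfb products, averaged 53.7 ± 3.01 CPM with sh900, 104 ± 24.6 CPM with sh902 and 59.7 ± 9.004 CPM with shNT (SD, n = 3 each), and rose with sh902 (log2 fold change 0.77 ± 0.17, edgeR, adjusted p = 0.0302). It was lower with sh900 than with sh902 (-0.87 ± 0.17, edgeR, adjusted p = 0.0361). Lrp1, a receptor gene that modulates Pdgfrb signalling, and Pdgfrl, for a receptor-like protein, fell with sh902 by 0.97 ± 0.24 and 2.46 ± 0.40. Nrp1, for a co-receptor, rose with sh900 by 1.41 ± 0.19 (edgeR, adjusted p = 0.00799) and was higher with sh900 than with sh902 by 1.38 ± 0.18 (adjusted p = 0.0201). Sparc, whose product binds PDGF, rose with sh900 by 1.02 ± 0.15, and the protease gene Pcsk5 fell by 1.67 ± 0.41. Plat, whose product activates the Pdgfc ligand, was the most abundant of the list at an average of 624 CPM and was not called. These calls fell to 0 with sh902 without the undated shNT library, the undated sh902 library or that of 3 September, and to 0 with sh900 without the undated or 30 August sh900 library.

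Of the 26 genes that relay the receptor signal, 3 rose and 7 fell with sh902, and 2 rose and 1 fell with sh900. Shc1, for an adaptor that links receptors to Ras, averaged 37.8 ± 9.91 CPM with sh900, 79.7 ± 22.7 CPM with sh902 and 34.2 ± 10.7 CPM with shNT. It rose with sh902 by 1.20 ± 0.12 (edgeR, adjusted p = 0.00547), in 9 of 9 fits that left out 1 library, and was lower with sh900 than with sh902 (-0.99 ± 0.12, adjusted p = 0.0184). The adaptor gene Nck2 rose with both, by 1.09 ± 0.16 with sh900 and 0.84 ± 0.16 with sh902, and Yes1, for a Src family kinase, fell with both, by 0.84 ± 0.15 and 0.83 ± 0.15. Vav3, for a guanine nucleotide exchange factor, rose with sh902 by 1.22 ± 0.20, and the adaptor gene Crk with sh900 by 0.84 ± 0.14.

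The other genes that fell with sh902, Plcg1, Gab1, Pik3ca, Pik3r1, Pik3r2 and Stat3, had log2 fold changes from -0.75 to -0.55 there. These calls with sh902 depended on most single libraries. Of 9 fits that left out 1 library, the Stat3 call was kept in 0 and those of Gab1, Pik3r1 and Pik3r2 in 1 each. The Pik3ca call was kept in 2 of 9 and the Plcg1 call in 4 of 9. Plcg1, for phospholipase C gamma, averaged 162 ± 21.2 CPM with sh900, 108 ± 17.0 CPM with sh902 and 161 ± 22.9 CPM with shNT. In the direct contrast of sh900 with sh902, 5 of these 6 were higher with sh900, by 0.61 to 0.94; Pik3r1 was not called. All 5 calls were lost without the undated or 30 August sh902 library and without the undated or 30 August sh900 library. The same held for the calls between the hairpins of Furin, Nrp1, Shc1, Ptprj, Csf1 and Sox6, and each of these calls was kept in 1 to 5 of 9 fits that left out 1 library. Gab1 and Pik3r2 were named after their values were seen. Leaving out the undated shNT library, the undated sh902 library or the sh902 library of 3 September left 1 call higher and 0 lower of the 26 with sh902, and leaving out the undated shNT library or the undated or 30 August sh900 library left 0 with sh900.

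Of 6 tested genes that attenuate the receptors, Cblb, for a ubiquitin ligase, fell with both hairpins, by 0.84 ± 0.13 with sh900 and 0.64 ± 0.13 with sh902. Ptprj, for a phosphatase that acts on PDGF receptors, averaged 65.7 ± 12.9 CPM with sh900, 191 ± 31.4 CPM with sh902 and 62.3 ± 32.7 CPM with shNT, and rose with sh902 (1.65 ± 0.31, edgeR, adjusted p = 0.0218). It was lower with sh900 than with sh902 (-1.44 ± 0.30, adjusted p = 0.0467). Of 14 genes of the early response to growth factors, Jun and Srf rose with both and Ier3 with sh900, and none fell. Jun averaged 459 ± 16.1 CPM with sh900, 485 ± 156 CPM with sh902 and 238 ± 16.5 CPM with shNT. Ier3 rose with sh900 by 3.14 ± 0.45 (edgeR, adjusted p = 0.0122), and its value with sh902 was 1.50 ± 0.45 (adjusted p = 0.0744). Fos, at 321 ± 229 CPM with sh900, 264 ± 143 CPM with sh902 and 265 ± 176 CPM with shNT, was not called. The median log2 fold change of the 14 was 0.64 with either hairpin, against -0.022 with sh900 and -0.0051 with sh902 over all genes. The calls of the attenuation and early response lists fell to 0 with either hairpin without the undated shNT library. With sh900 both lists also fell to 0 without the undated or the 30 August sh900 library. With sh902 the attenuation list fell to 0 without any 1 of the 3 sh902 libraries, and the early response list without the undated sh902, the undated sh900 or the 3 September sh900 library.

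Of 14 related ligand and receptor genes 10 were tested. Kitl, the ligand gene of Kit, rose with both, by 1.11 ± 0.20 with sh900 and 1.01 ± 0.20 with sh902, and averaged 177 ± 63.3 CPM with sh900, 165 ± 22.0 CPM with sh902 and 86.9 ± 40.2 CPM with shNT. Receptor and ligand gene thus changed in opposite directions. Vegfc, a lymphatic growth factor gene, rose with both, by 1.88 ± 0.32 and 1.46 ± 0.32. Csf1, a macrophage growth factor gene, averaged 154 ± 45.6 CPM with sh900, 76.7 ± 6.61 CPM with sh902 and 62.3 ± 2.38 CPM with shNT; it rose with sh900 by 1.32 ± 0.20 and was higher than with sh902 by 1.05 ± 0.20 (edgeR, adjusted p = 0.0339). Pgf fell with sh902 by 1.30 ± 0.30. Without the undated sh902 library 0 of the 10 were called with sh902, and without the undated or 30 August sh900 library 0 with sh900.

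**Figure D4:**
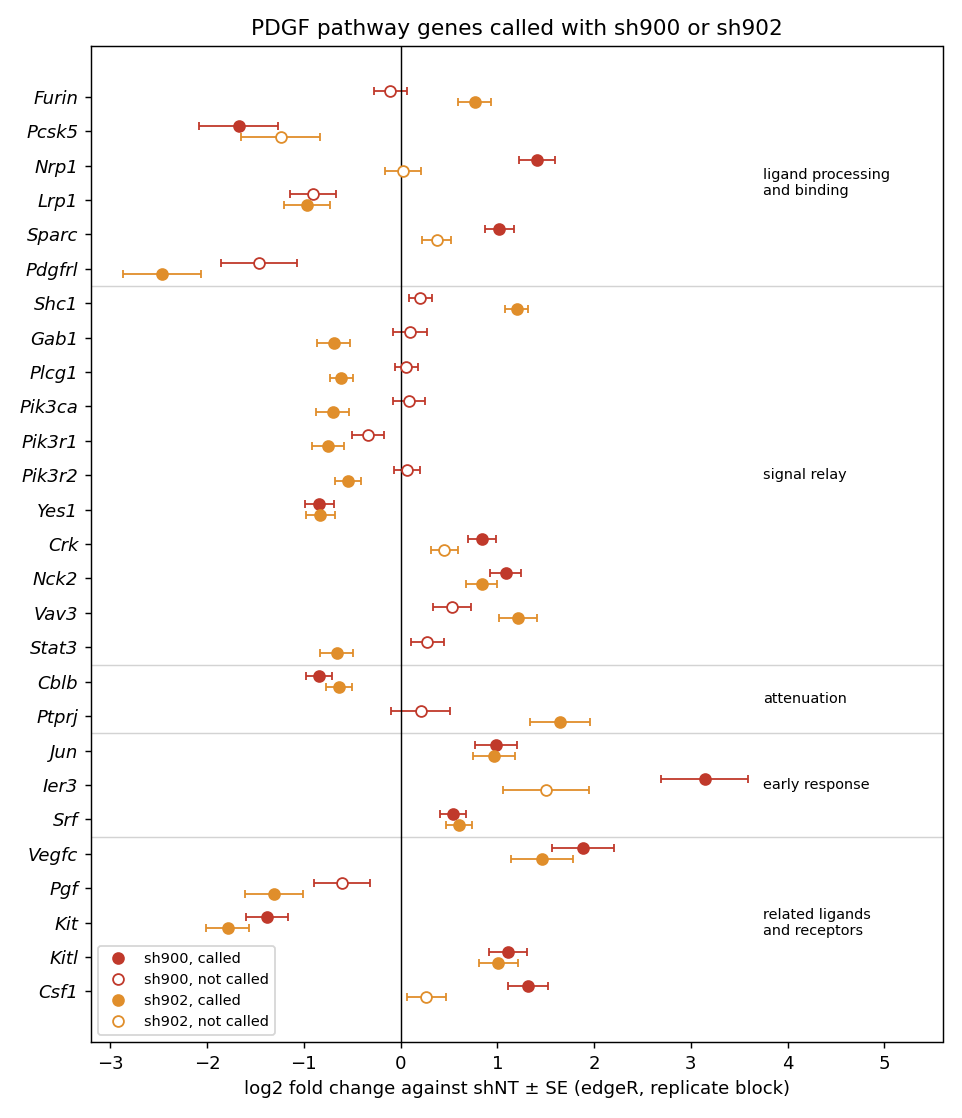
Log2 fold change ± SE against shNT for the pathway genes called with sh900 or sh902 in edgeR's fit with the replicate block; sh900 is drawn above sh902 for each gene, and filled points passed an adjusted p of 0.05. Nck2, Jun, Srf, Vegfc and Kitl lie to the right and Yes1, Cblb and Kit to the left with both hairpins, while Shc1 and Ptprj are filled for sh902 and Nrp1, Sparc, Crk, Ier3 and Csf1 for sh900.

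Of 17 marker genes of oligodendrocyte precursors, Pdgfra not counted, 0 rose and 9 fell with sh902 in the blocked fit, beside 5.39% of all genes lower, and 8 were not called. With sh900, 0 rose and 2 fell, beside 3.45% of all genes lower. The median log2 fold changes were -1.08 with sh902 and -0.39 with sh900, and without the block edgeR called 0. Against the control of the same label, the median log2 ratio of the 17 genes was -0.61, -0.089 and -0.40 with sh900 and -1.28, -1.08 and -1.31 with sh902. Gpr17, for a receptor of committed precursors, averaged 33.0 ± 52.6 CPM with sh900, 6.87 ± 9.48 CPM with sh902 and 150 ± 202 CPM with shNT (SD, n = 3 each), and fell by 2.87 ± 0.49 with sh900 and by 4.35 ± 0.55 with sh902. The transcription factor genes Sox6 and Sox8 fell with sh902 by 1.27 ± 0.16 and 1.50 ± 0.22, and Neu4, a sialidase gene, by 3.34 ± 0.63. Sox6 was higher with sh900 than with sh902 by 0.88 ± 0.16 (edgeR, adjusted p = 0.0288). The 9 calls with sh902 became 0 when the undated sh902 library was left out and 10 when the shNT library of 30 August was. Among the 9 fits that left out 1 library, the Sox6 call with sh902 was kept in 8 and those of Gpr17 and Sox8 in 7. The Neu4 call was kept in 5 of 9, and those of the other genes called in only 2 to 4 of 9. The 2 calls with sh900 fell to 0 without the undated shNT, undated sh902, undated sh900 or 30 August sh900 library.

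The summed level of the 17 precursor markers was 5330 to 6712 CPM with sh900, 3532 to 5625 CPM with sh902 and 6426 to 7689 CPM with shNT, and Neu4 was at 0 in the undated sh902 library. Most of the sum was Ptprz1 and Olig1, at averages of 2236 and 1479 CPM, which were not called. By label, the median log2 ratio of the 17 genes between 30 August and 3 September was -1.57 with sh900, -0.82 with sh902 and -1.32 with shNT, in the direction of Pdgfra. The part of a change in cell makeup in the lower Pdgfra was not tested. The summed astrocyte list was 1874 to 5611 CPM with sh900, 1548 to 4426 CPM with sh902 and 2110 to 8941 CPM with shNT, and the neuron list 557 to 1149 CPM with sh900, 478 to 902 CPM with sh902 and 678 to 1969 CPM with shNT.

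Some markers of other neural cell types were called lower as well in the blocked fit. In that fit edgeR called 5.12% of all genes higher and 5.39% lower with sh902, and 5.39% higher and 3.45% lower with sh900. Without the block edgeR called 0 genes of the astrocyte, neuron and neural stem lists with either hairpin. Of 8 astrocyte genes, 0 rose and 3 fell with sh902, Aqp4, Slc1a2 and S100b, and 0 rose and 2 fell with sh900, with median log2 fold changes of -1.18 with sh902 and -0.32 with sh900. Of 7 tested neuron genes, 0 rose and 4 fell with sh902, Tubb3, Dcx, Map2 and Elavl3, and 0 rose and 2 fell with sh900, with medians of -1.18 and -1.24. Both lists fell to 0 calls with sh902 without the undated shNT, the undated sh902 or the 3 September sh902 library. With sh900 both fell to 0 without the undated shNT library or the undated or 30 August sh900 library, and the astrocyte list also without the undated sh902 library. Of 10 neural stem genes, 2 rose and 3 fell with sh902 and 3 rose and 0 fell with sh900, with medians of -0.49 and -0.28. Nes, for an intermediate filament protein, rose by 1.64 ± 0.23 with sh900 and by 1.68 ± 0.23 with sh902, and Vim, for another, by 1.16 ± 0.16 with sh900 and by 0.73 ± 0.16 with sh902. The Vim call with sh902 was kept in 1 of 9 fits that left out 1 library. Sox9, Hes5 and Prom1 fell with sh902, by 0.75 ± 0.18, 2.28 ± 0.49 and 2.03 ± 0.47, and were kept in 2, 2 and 3 of 9 such fits. The neural stem calls fell to 0 with sh902 without the undated shNT, the undated sh902 or the 3 September sh902 library, and with sh900 without the undated sh900 library. The proliferation list had 0 of 8 genes called in the blocked fit with either hairpin, and the fibroblast list 0 of 8. Against the control of the same label, the median log2 ratio of the proliferation genes was 0.37, -2.20 and 2.43 with sh900. With sh902 it was 0.85, -1.59 and 3.00. The sign thus changed with the label, and the 0 calls do not show equal levels.

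The genes whose level followed each member most closely over the 9 libraries were taken by Pearson correlation of log2 CPM among 12434 genes with a mean of at least 1 CPM. Libraries of a group and of a label share their deviations, so these values describe likeness only. For Pdgfra they were Rab30 (r = 0.993), Tox (0.992), Mbp (0.992), Stk32a (0.991) and Hhipl1 (0.990). Mbp, for a protein of myelin, stood at 1.11, 0.323 and 7.49 CPM with sh900, at 0.782, 0.471 and 4.01 CPM with sh902 and at 4.58, 0.789 and 24.0 CPM with shNT. For Pdgfrb they were Slc9a3r1, Pcdh9 and Chd3 (0.984 to 0.974), on the counts of few libraries.

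For Pdgfa the closest genes were Actn4 (r = 0.997), Klhl42 (0.990) and Noct (0.989). Actn4, for an actin crosslinker, stood at 253, 406 and 175 CPM with sh900, at 295, 484 and 193 CPM with sh902 and at 136, 214 and 115 CPM with shNT. For Pdgfb they were Arl4d (r = 0.946), B4galt5 (0.939), Zbtb10 (0.921), Erap1 (0.920) and Tlr3 (0.919). Tlr3, for a receptor of double-stranded RNA, stood at 74.4, 35.4 and 34.1 CPM with sh900, at 29.1, 26.6 and 24.3 CPM with sh902 and at 24.3, 20.2 and 14.2 CPM with shNT. For Pdgfc they were Ndufaf4 (r = 0.977), Cers5 (0.971) and Myc (0.968). Ranked by Spearman correlation instead, 1 of the 5 genes of Pdgfra, 0 of the 3 of Pdgfrb, 2 of the 3 of Pdgfa, 3 of the 5 of Pdgfb and 1 of the 3 of Pdgfc stayed in the list.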

How the data were processed

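The authors deposited estimated counts per gene, in whole numbers, for 9 libraries. Per the submitters' processing notes the tools were STAR 2.5.0a, RSEM, Trimmomatic 0.36, cutadapt and FastQC, with GRCm38; no annotation release or counting option is named there. RSEM divides reads that fit several genes by a model, so overlapping genes are uncertain. Symbols and coordinates are from GENCODE M21 (54079 identifiers matched, 153 did not). CPM is the count scaled to the library total.

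Tests were edgeR 4.0.16's quasi-likelihood test in R 4.3.3, with TMM factors, edgeR's default expression filter (17602 genes, 99.9% of counts), all 9 libraries and Benjamini-Hochberg adjustment over all genes. A call is an adjusted p under 0.05. SE is the log2 fold change over the square root of F. The fit without a block is the main one; the alternative, in which a replicate block stands for the date label, is printed beside it. Pairing rests on the dates in the titles. Each library was compared with its group mean, and these deviations correlated at 0.401 to 0.630 among 30 August libraries, 0.455 to 0.645 among 3 September, 0.0792 to 0.399 among undated and -0.661 to 0.301 between labels, so pairing was accepted for the dated libraries and left uncertain for the undated ones. The deviations of the undated shNT library correlated at 0.0792 with the undated sh902 library and at 0.144 with the undated sh900 library. With the sh902 and sh900 libraries of 3 September they correlated at 0.301 and 0.284. No 2 libraries of a group agreed within sampling noise by a chi-square test of their counts. The edgeR fits of sh902 against shNT were tried on simulated counts with a shared shift per label. That simulation cannot check the pairing of the undated libraries, because it builds the pairing in.

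The 6 genes and the gene lists were chosen with earlier results of these data known. The text names the 6 genes, their protein-coding neighbours, the 3 or 5 genes most like each member, up to 4 called genes and the 2 most abundant genes of each list, Phf2 and Mki67. Floors (3 counts per library) and 95% intervals of count ratios, from exact binomial intervals, cover counting error only; PCR reads are not independent molecules. DESeq2 1.42.0, RLE factors, library size alone, other filters, the compared groups alone, the dated libraries and leaving out each library were tried.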

Additional observations from a re-analysis of the deposited data

Results flagged for a closer look

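Among the 6 PDGF genes, their neighbours, Phf2 and Mki67, the difference between hairpin and control libraries changed direction with the label for 4 genes: both hairpin libraries lay on one side of the control under one label and on the other side under another. The difference between labels was not tested, since each label holds 1 library per group. Values are the mean of sh900 and sh902 minus shNT in log2 CPM. Pdgfd, on counts of 3 to 13, stood at 0.74 in the undated libraries, -0.39 on 30 August and -0.53 on 3 September. The counting intervals of its ratios to the same-label control all included 1, so no direction is established for Pdgfd under any label. Mki67 stood at 0.64 in the undated libraries, -1.89 on 30 August and 2.72 on 3 September. Rpl3, the ribosomal protein gene beside Pdgfb, stood at -0.086 in the undated libraries and 0.26 on 3 September. Ctso, the cathepsin gene beside Pdgfc, stood at -0.21 in the undated libraries, 0.49 on 30 August and 0.36 on 3 September. Groups of 3 libraries are too small for a test of single libraries as outliers.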

How the results depend on the processing

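The counts of called genes depended on the block for the date label, on the tool and on the filter. Without it edgeR called 0 genes in each contrast, and with the replicate block it called 1850 with sh902 against shNT, 1557 with sh900 against shNT and 743 for sh900 against sh902. In the same order DESeq2 called 848, 790 and 1018 genes without the block and 2813, 2590 and 1757 with it, and edgeR with no filter on low counts called 35, 58 and 139. Keeping genes that reached 1 CPM in 3 libraries gave 57 for sh900 against sh902, and the 6 dated libraries with the block gave 4 for sh900 against shNT.

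With sh902, Pdgfra became a call at -1.86 in edgeR and -1.85 in DESeq2 with the block (log2), Pdgfa at 2.17 and 2.16, and Pdgfrb at -3.86 in DESeq2 but not in edgeR with all libraries. The mean level of Pdgfc was 3.18 CPM per kilobase with the longest transcript as length, against 2.20 with merged exons. The means of Pdgfa (30.6 against 20.2), Pdgfra (9.59 against 6.54) and Pdgfb (0.367 against 0.259) were higher too. Those of Pdgfd and Pdgfrb hardly differed, and the order of the medians was the same with either length.

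Over the fits that left out 1 library, with and without the block, calls ran from 0 to 3757 with sh902 against shNT, 0 to 2912 with sh900 against shNT and 0 to 1992 for sh900 against sh902. With sh902 the log2 fold change ran from -3.49 to -0.72 for Pdgfra, -6.29 to -1.96 for Pdgfrb and 1.33 to 3.19 for Pdgfa. With sh900 against shNT it ran from -3.40 to 0.20 for Pdgfra. For sh900 against sh902 it changed sign, at -1.24 to 2.25 for Pdgfra, -0.54 to 3.13 for Pdgfrb, -1.13 to 0.73 for Pdgfa and -0.0082 to 0.73 for Pdgfc. The causes were not tested. Depth limits Pdgfd, Pdgfrb and Pdgfb, whose counts were under 10 in several libraries.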
